A study of Mus musculus with 6 samples.

Results

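The interferon response and MHC class I genes described here are 37 genes chosen by symbol from the 54532 rows of the deposited count table, each matching 1 row, and 28 of them passed a filter on low counts and were tested. They were measured by RNA sequencing of 32D cells, a mouse myeloblast-like line grown with interleukin-3. All cells had been transduced with the retroviral vector MSCV-IRES-GFP carrying human U2AF1, a factor that recognises the end of introns. One group received the S34F mutant (S34F, 3 libraries) and the other the wild-type human protein (WT, 3 libraries), so the controls carried the vector and an extra copy of U2AF1 too. The labels name no separate cultures, clones or sorting for GFP, so each p-value sets the difference against library-to-library spread that may be technical. No interferon treatment is named in the labels.

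Interferons are secreted proteins of antiviral defence. Type I interferon binds the receptor pair IFNAR1 and IFNAR2 and activates transcription factors, STAT2 and IRF9 among them, that bind the interferon-stimulated response element and induce a large set of antiviral genes. Interferon gamma binds IFNGR1 and IFNGR2 and acts through gamma-activated sites. Both raise the MHC class I pathway, in which peptides cut by the proteasome are carried by TAP1 and TAP2 into the endoplasmic reticulum and loaded with the help of tapasin onto class I heavy chains bound to beta-2 microglobulin. In uninduced cells the receptors and many sensors are expressed, while the strictest interferon targets are usually low.

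Totals lay between 16509899 and 19129250 counts per library, and 1 count equalled 0.0520 to 0.0608 CPM (counts scaled to library size with TMM factors). A count of 0 allowed a level of up to 3 counts, which is 0.156 to 0.182 CPM, for counting error only. WT replicates 2 and 3 were far closer to each other (biological coefficient of variation 3.16%) than other pairs within a group (16.5% to 21.5%). Pairs between the groups lay between 21.7% and 29.5%. WT replicate 1 was about as close to S34F replicate 1 (21.7%) as to WT replicates 2 and 3 (21.5% and 21.4%). The mouse U2af1 gene had 91.9, 57.3 and 91.7 CPM in S34F replicates 1 to 3. It had 97.9, 58.6 and 56.9 CPM in WT replicates 1 to 3, so its high and low libraries did not follow the groups. Gene counts do not show which allele was carried. The line was checked against 12 progenitor markers. Ptprc, Csf2rb, Csf2rb2, Spi1, Il3ra and Ctsg were at 62.8 CPM or more in every library, Mpo and Prtn3 were lower, Kit, Cd34 and Elane were below 0.5 CPM in every library, and Cebpa had no count in any library. Spi1, Il3ra and Ctsg were higher in every S34F library than in any WT library, and Spi1 rose, just under the threshold (log2 fold change 0.60, edgeR adjusted p = 0.0491). Ptprc, Csf2rb, Csf2rb2, Mpo and Prtn3 overlapped between the groups, and Prtn3 averaged lower in S34F cells (31.8 CPM, against 42.1 CPM in WT cells). The B and T lymphocyte markers summed to less than 0.6 CPM in every library.

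The promoters of 8 genes are shown because they hold motif letters linked to interferon or class I genes and because these genes span the range of levels and changes described below. They are the 250 bases before the RefSeq start site, on GRCm38.p6, the assembly behind mm10. Capitals mark the motif named for each gene, on either strand. The core letters of the interferon-stimulated response element (ISRE core), which are GAAA, any 2 bases and GAAA again, are marked in 5 promoters. These are Isg15 (chr4:156200819-156201068, minus strand), a ubiquitin-like protein, and Ifit1 (chr19:34640639-34640888, plus strand), an RNA-binding antiviral protein. They are also B2m (chr2:122147437-122147686, plus strand), the class I light chain, Bst2 (chr8:71537473-71537722, minus strand), the virus tether tetherin, and Lgals9 (chr11:78984925-78985174, minus strand), the lectin galectin-9. Where matches overlap, as in Isg15 and Bst2, the capitals run together.
Isg15: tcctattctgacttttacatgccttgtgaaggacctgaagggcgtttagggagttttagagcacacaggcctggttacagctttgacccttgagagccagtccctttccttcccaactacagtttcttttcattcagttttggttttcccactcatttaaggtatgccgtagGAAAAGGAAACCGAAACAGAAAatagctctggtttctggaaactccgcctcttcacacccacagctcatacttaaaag
Ifit1: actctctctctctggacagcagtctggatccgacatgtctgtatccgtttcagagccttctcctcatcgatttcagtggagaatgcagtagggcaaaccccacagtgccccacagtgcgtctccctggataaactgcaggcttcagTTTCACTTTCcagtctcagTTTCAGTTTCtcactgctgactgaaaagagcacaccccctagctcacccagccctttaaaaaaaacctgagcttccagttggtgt
B2m: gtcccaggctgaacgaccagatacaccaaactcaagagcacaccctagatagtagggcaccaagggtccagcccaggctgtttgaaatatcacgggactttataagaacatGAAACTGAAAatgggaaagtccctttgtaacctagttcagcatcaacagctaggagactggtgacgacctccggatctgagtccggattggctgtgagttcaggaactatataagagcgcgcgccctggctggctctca
Bst2: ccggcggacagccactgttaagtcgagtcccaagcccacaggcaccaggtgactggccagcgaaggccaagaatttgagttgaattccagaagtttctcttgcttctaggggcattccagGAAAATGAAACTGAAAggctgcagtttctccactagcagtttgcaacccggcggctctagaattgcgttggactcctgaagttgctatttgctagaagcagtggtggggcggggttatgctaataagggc
Lgals9: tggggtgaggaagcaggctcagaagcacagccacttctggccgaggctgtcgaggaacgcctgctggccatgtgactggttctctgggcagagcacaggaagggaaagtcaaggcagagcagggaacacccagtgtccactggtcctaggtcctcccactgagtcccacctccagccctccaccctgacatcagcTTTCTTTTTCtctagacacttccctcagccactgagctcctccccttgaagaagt

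The letters of the gamma-activated site, TTCNNNGAA, which read the same on both strands, are marked for the receptor gene Ifnar2 (chr16:91372533-91372782, plus strand) and for Psmb8 (chr17:34197945-34198194, plus strand), a subunit of the immunoproteasome. The CCAAT letters are marked on both strands for the class I heavy chain gene H2-D1 (chr17:35262844-35263093, plus strand). In the GENCODE M21 annotation Psmb8 starts at 34197721 and H2-D1 at 35262730. The printed bases of these genes therefore lie before the RefSeq start site but inside the annotated gene.
Ifnar2: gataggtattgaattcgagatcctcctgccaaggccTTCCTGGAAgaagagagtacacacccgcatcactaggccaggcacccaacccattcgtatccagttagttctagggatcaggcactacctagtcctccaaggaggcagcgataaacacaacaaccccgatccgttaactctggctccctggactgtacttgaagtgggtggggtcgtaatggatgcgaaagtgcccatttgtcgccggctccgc
Psmb8: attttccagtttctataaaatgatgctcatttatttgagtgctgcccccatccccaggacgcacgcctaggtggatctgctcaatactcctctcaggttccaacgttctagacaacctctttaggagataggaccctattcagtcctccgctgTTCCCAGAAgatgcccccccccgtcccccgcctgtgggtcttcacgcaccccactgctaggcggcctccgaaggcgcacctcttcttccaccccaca
H2-D1: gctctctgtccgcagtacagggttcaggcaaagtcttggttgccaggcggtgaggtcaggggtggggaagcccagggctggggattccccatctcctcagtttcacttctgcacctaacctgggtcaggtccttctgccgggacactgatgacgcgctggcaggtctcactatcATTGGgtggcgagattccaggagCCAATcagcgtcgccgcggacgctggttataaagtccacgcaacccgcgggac

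Promoter windows of 300 bases, 250 before and 50 after the start site, were found by symbol for 32 of the 37 members. Mx1, Ifi27, Tap2, Usp18 and Zbp1 had no entry. The ISRE core was present in 13 of the 38 windows of these members, which is 34.2%, against 3.44% of all 32851 windows. TTCNNNGAA was present in 28.9% of the members' windows and 8.30% of all windows, and CCAAT in 44.7% and 37.4%. The 13 members with the ISRE core were B2m, Bst2, Ddx58, Eif2ak2, Ifih1, Ifit1, Ifit3, Ifitm2, Ifitm3, Isg15, Oas1a, Rsad2 and Stat2. A match is a description of the letters only.

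The members fell into 2 ranges of level, in S34F and WT cells alike. Over the 6 libraries 25 members averaged 13.6 CPM or more, 12 averaged 1.32 CPM or less, and none lay between. The higher range held all 4 receptors, the signal transducers, the MHC class I loading machinery and 8 antiviral effectors, known interferon targets such as Ifit2, Ifi27 and Bst2 among them. The lower range held other well-known interferon targets, with Isg15, Ifit1, Ifit3, Mx1, Oasl2, Rsad2, Usp18 and Irf7 among them. Of the 37 members, 28 passed the filter on low counts and were tested, and the other 9 were all in the lower range.

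**Figure D1:**
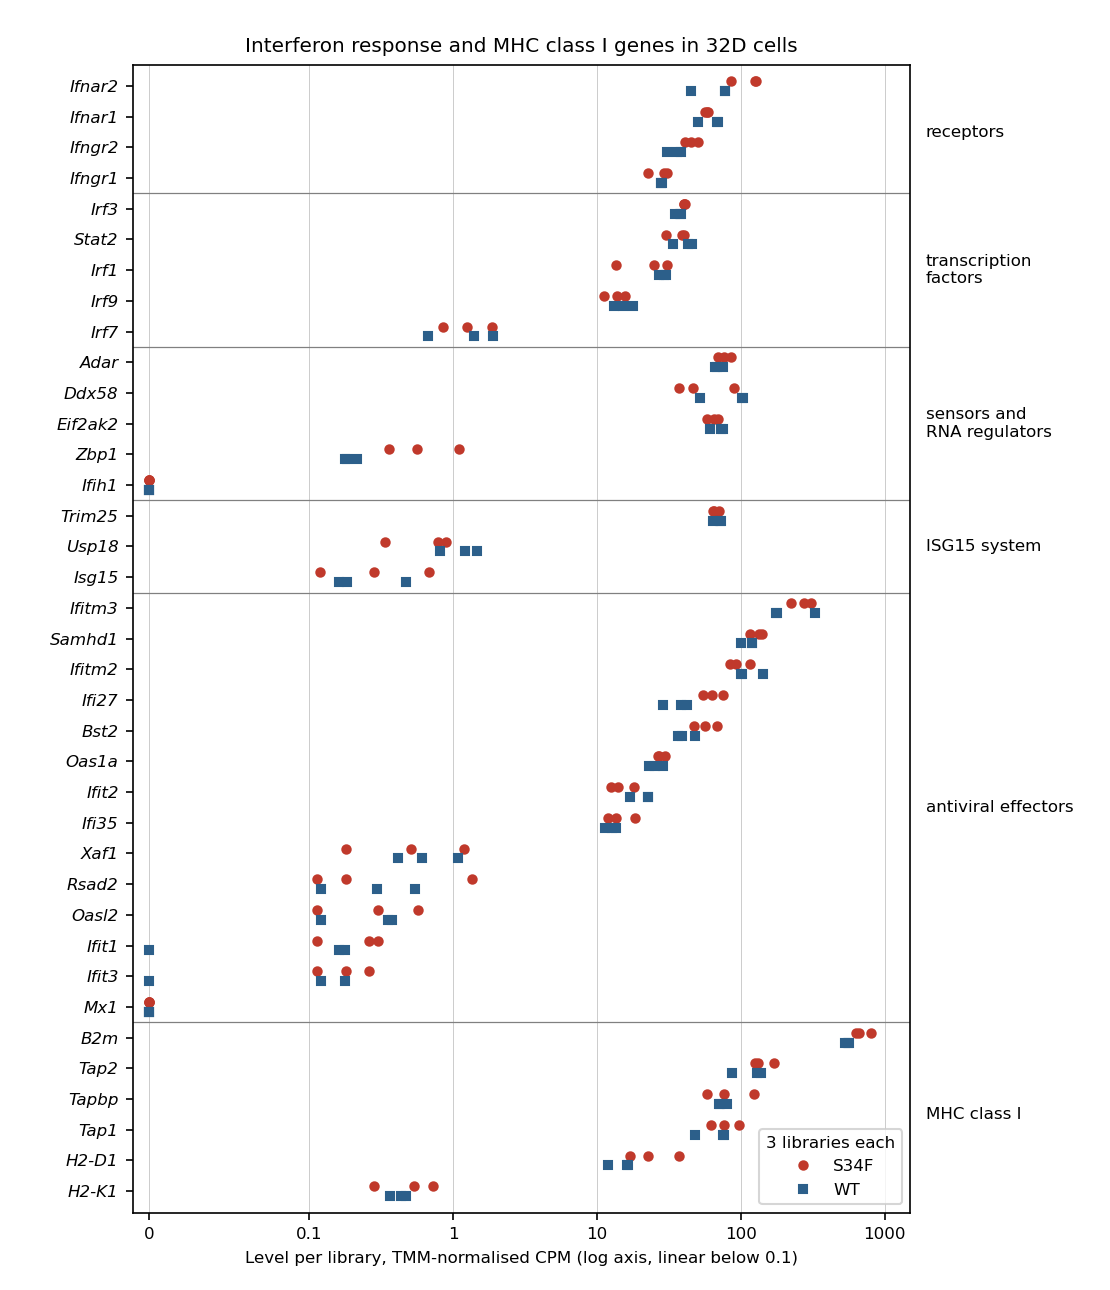
Level of each of the 37 members in each library, in TMM-normalised CPM on a log axis that is linear below 0.1, grouped by role, with S34F libraries as red circles above WT libraries as blue squares. No member lies between a mean of 1.32 and a mean of 13.6 CPM, and Ifih1 and Mx1 are at 0 in every library.

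No member passed the test between S34F and WT cells. Of the 28 tested members 0 had an adjusted p under 0.05 (edgeR quasi-likelihood test, Benjamini-Hochberg over 13444 genes), where 2.18% of all tested genes passed, 1.58% higher and 0.595% lower in S34F. With so few calls among all genes, a count of 0 among 28 is near the background. DESeq2 called 2 of 35 members, Ifi27 and Ifnar2, both higher in S34F, where it called 1080 of 24480 genes overall. At an unadjusted p under 0.05, 6 members were higher in S34F, namely Ifi27, Ifnar2, Bst2, Ifngr2, B2m and H2-D1, where 11.9% of all tested genes were. Ifit2 alone was lower at that threshold, where 10.1% of all tested genes were. All S34F libraries lay above all WT libraries in 6 tested members and below them in none. Of all 13444 tested genes 1884 lay above and 1765 below in this way, which together is 27.1%. The median log2 fold change of the 28 was 0.12, beside 0.00 over all tested genes, with 16 above 0 and 12 below. Without S34F replicate 2 it was 0.008, and with the trend with GC content removed it was 0.018. In bulk RNA, a change in the number of cells of a kind and a change in RNA per cell cannot be told apart. Fold changes below are log2 values of S34F over WT with their SE, over 3 libraries in each group.

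**Figure D2:**
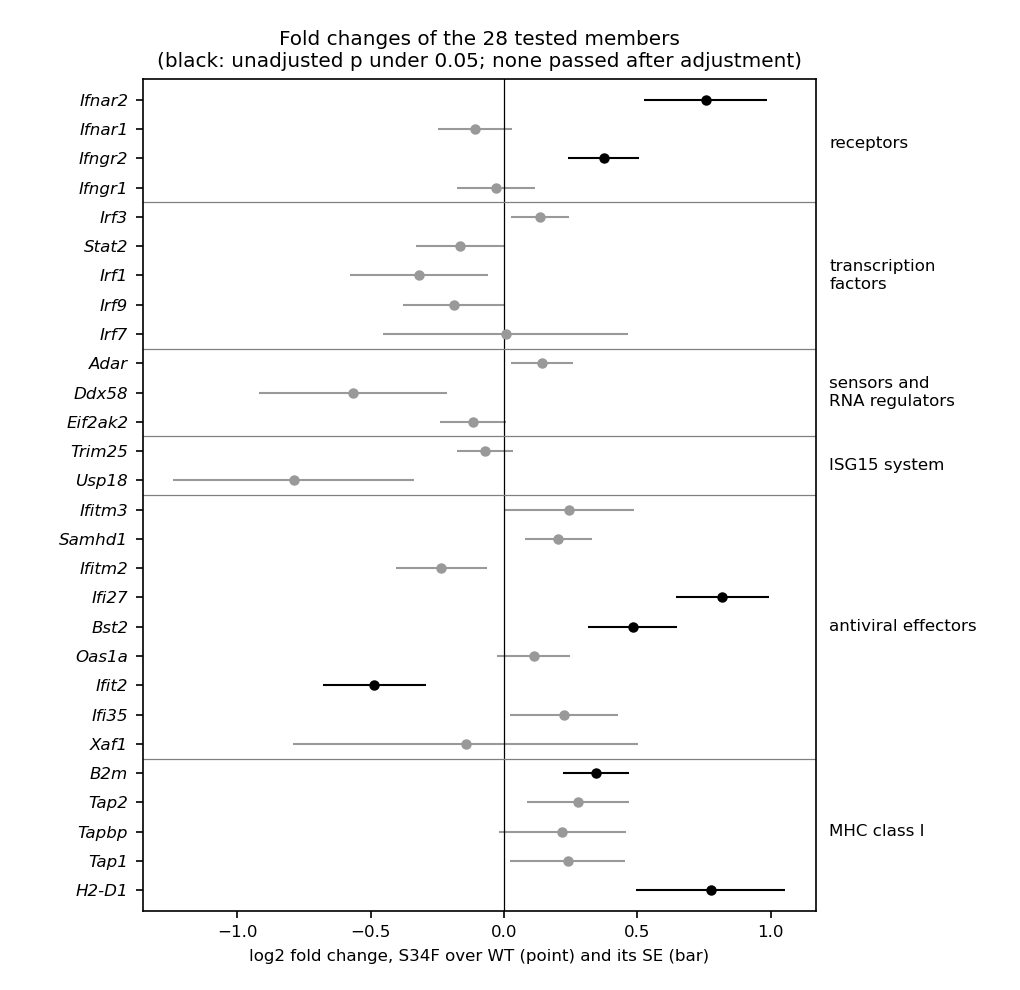
Fitted log2 fold change of each of the 28 tested members, S34F over WT (points), with its standard error (bars), grouped by role. Black points have an unadjusted p under 0.05, and none passed after adjustment. The 5 tested MHC class I members all lie above 0, between 0.22 and 0.77, and Tapbp alone of them turned to -0.125 without S34F replicate 2.

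Among the receptors, the levels of Ifnar2 and Ifngr2 were higher in S34F cells in every library, while those of their partners Ifnar1 and Ifngr1 overlapped. Ifnar2 (ENSMUSG00000022971, chromosome 16, 91372783 to 91405589, plus strand, mm10) encodes the high-affinity chain of the type I interferon receptor. It had 85.4, 126.8 and 125.6 CPM in S34F replicates 1 to 3, against 45.2, 77.2 and 77.6 CPM in WT replicates 1 to 3. The lowest S34F library was above the highest WT library. The log2 fold change, 0.76 ± 0.23, did not pass (edgeR adjusted p = 0.114, between 0.0838 and 0.248 with single libraries left out). Within the group of WT libraries, replicate 1 was much lower than replicates 2 and 3. The annotated gene Gm21970 covers 9.5% of the exon bases of Ifnar2 on the same strand and was at 0 in every library.

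Ifngr2, the signalling chain of the interferon gamma receptor, had 45.3, 50.1 and 41.1 CPM in S34F replicates 1 to 3, against 30.8, 36.2 and 38.3 CPM in WT replicates 1 to 3. The groups did not overlap, but the highest WT library was close to the lowest S34F library. Its log2 fold change was 0.37 ± 0.13 (edgeR adjusted p = 0.156). Ifnar1 and Ifngr1 had log2 fold changes of -0.11 and -0.03 (edgeR adjusted p = 0.683 and 0.928). By level per kilobase of exon Ifnar2 was the highest receptor, at 26.9 CPM per kilobase, and Ifngr2, Ifnar1 and Ifngr1 followed between 10.7 and 9.76. Ifnar2, Ifnar1 and Ifngr2 lie together on chromosome 16, between 91372783 and 91565623.

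Of the 5 transcription factors none passed. Irf3, which is activated by sensors of viral nucleic acid, had the highest level per kilobase of the 5. It was at 40.5, 40.2 and 40.8 CPM in S34F replicates 1 to 3, against 38.3, 34.9 and 37.5 CPM in WT replicates 1 to 3. The groups did not overlap, and the difference was small, at 0.13 ± 0.11 on the log2 scale (edgeR adjusted p = 0.501), which was -0.03 after removal of the trend with GC content. Stat2 and Irf9, which act together in type I signalling, averaged 36.4 ± 5.57 and 13.5 ± 2.22 CPM in S34F cells, against 40.8 ± 6.36 and 15.4 ± 2.39 CPM in WT cells (SD, n = 3 per group). Irf1, a mediator of interferon gamma signalling, averaged 23.2 ± 8.77 CPM in S34F cells and 28.9 ± 1.67 CPM in WT cells. Irf7, the amplifier of type I interferon production and itself an interferon target, averaged 1.32 ± 0.52 CPM in S34F cells and 1.32 ± 0.61 CPM in WT cells.

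Among sensors and regulators of RNA, Eif2ak2, the double-stranded RNA kinase PKR, had the highest level per kilobase. It had 58.1, 69.1 and 64.5 CPM in S34F replicates 1 to 3, against 60.6, 74.6 and 72.7 CPM in WT replicates 1 to 3, and the groups overlapped. The RNA editing enzyme gene Adar averaged 77.0 ± 7.76 CPM in S34F cells and 69.8 ± 4.46 CPM in WT cells (SD, n = 3 per group). Chrnb2, on the opposite strand, covers 16.8% of the exon bases of Adar, whose count is uncertain if strand was not used in counting. Ddx58, which encodes the RNA sensor RIG-I, varied widely between libraries of each group. It had 36.8, 90.0 and 46.6 CPM in S34F replicates 1 to 3, against 52.1, 101.4 and 103.3 CPM in WT replicates 1 to 3 (edgeR adjusted p = 0.381). S34F replicate 2 was close to WT replicates 2 and 3, and WT replicate 1 was close to S34F replicate 3. Ifih1, which encodes MDA5, a second RNA sensor of the same family, had no count in any library. Zbp1, a sensor of Z-form nucleic acid, had 10, 21 and 6 counts in S34F replicates 1 to 3, against 3, 3 and 4 counts in WT replicates 1 to 3. Every S34F library was higher, but the gene did not pass the filter. Without the filter its edgeR adjusted p was 0.163 (log2 fold change 1.78), and DESeq2 gave an unadjusted p of 0.0372 and no adjusted p.

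The ISG15 system tags proteins with a ubiquitin-like modifier. Its 3 members were at very different levels. The ubiquitin and ISG15 ligase gene Trim25 had 70.0, 63.6 and 65.3 CPM in S34F replicates 1 to 3, against 64.5, 72.5 and 72.0 CPM in WT replicates 1 to 3. The groups overlapped (log2 fold change -0.07 ± 0.11, edgeR adjusted p = 0.733). The modifier gene Isg15 itself had 5, 13 and 2 counts in S34F replicates 1 to 3 and 3, 8 and 3 counts in WT replicates 1 to 3. Its promoter has 3 overlapping matches to the ISRE core, printed above. Usp18, which removes ISG15 and dampens type I signalling, averaged 0.672 ± 0.294 CPM in S34F cells and 1.17 ± 0.334 CPM in WT cells (SD, n = 3 per group, edgeR adjusted p = 0.342).

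The 14 antiviral effectors held the member with the smallest p and the only member at an unadjusted p under 0.05 that was lower in S34F cells. Ifi27 (ENSMUSG00000064215, chromosome 12, 103434211 to 103440239, mm10), an interferon-inducible membrane protein gene, had 63.1, 74.5 and 54.2 CPM in S34F replicates 1 to 3, against 28.6, 42.2 and 38.1 CPM in WT replicates 1 to 3. All S34F libraries were higher than all WT libraries. The log2 fold change of 0.82 ± 0.17 missed the threshold (edgeR adjusted p = 0.0535). It passed with DESeq2 (adjusted p = 0.00108), without the count filter (edgeR adjusted p = 4.88e-04) and without WT replicate 1 (edgeR adjusted p = 0.0391). The last of these fits took the WT spread from replicates 2 and 3 alone, which were far closer to each other than other pairs within a group. With WT replicates 2 and 3 summed, the edgeR adjusted p of Ifi27 was 0.142. With other single libraries left out the edgeR adjusted p lay between 0.0861 and 0.187. Bst2 had 47.3, 68.6 and 55.9 CPM in S34F replicates 1 to 3, against 47.7, 36.5 and 38.8 CPM in WT replicates 1 to 3. Here WT replicate 1 lay just above S34F replicate 1, so the groups overlapped (log2 fold change 0.48 ± 0.17, edgeR adjusted p = 0.146).

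Ifit2, an RNA-binding protein gene of the IFIT family, had 12.5, 18.1 and 13.9 CPM in S34F replicates 1 to 3, against 17.1, 22.7 and 22.7 CPM in WT replicates 1 to 3. S34F replicate 2 was above WT replicate 1, and the log2 fold change of -0.49 ± 0.19 did not pass (edgeR adjusted p = 0.188). Its relatives Ifit1 and Ifit3 had between 0 and 5 counts in every library. Ifit3 shares 51.2% of its 50-base words with transcripts of other genes, mainly its copy Ifit3b, so a low count of it is uncertain. Ifit1 shares 7.13%.

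Ifitm3, a membrane protein that blocks virus entry, had the highest level per kilobase of the effectors, at 364.7 CPM per kilobase. It had 308.5, 221.7 and 274.2 CPM in S34F replicates 1 to 3, against 326.0, 175.8 and 177.5 CPM in WT replicates 1 to 3. WT replicate 1 was the highest of the 6 libraries and the other WT libraries the lowest, and the log2 fold change was 0.24 ± 0.24 (edgeR adjusted p = 0.597). Without WT replicate 1 it was 0.61, with an edgeR adjusted p of 0.0488. That fit took the WT spread from replicates 2 and 3 alone, which were far closer to each other than other pairs within a group. It called 1177 of 13837 genes, against 293 of 13444 with all libraries. With WT replicates 2 and 3 summed, the log2 fold change of Ifitm3 was 0.093 (edgeR adjusted p = 0.912). The neighbouring Ifitm2 averaged 97.3 ± 15.7 CPM in S34F cells and 114.5 ± 23.6 CPM in WT cells (SD, n = 3 per group). Of its 50-base words 48.5% also occur in other genes, mainly the overlapping Gm45717, which was at 0 in every library.

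Samhd1, a phosphohydrolase that depletes nucleotides, averaged 129.9 ± 13.4 CPM in S34F cells and 112.7 ± 11.5 CPM in WT cells (SD, n = 3 per group, edgeR adjusted p = 0.373). Oas1a, an oligoadenylate synthetase that senses double-stranded RNA, averaged 27.8 ± 1.83 CPM in S34F cells and 25.7 ± 2.98 CPM in WT cells. It shares 57.6% of its words, mainly with Oas1g. Ifi35, an interferon-induced gene, and Xaf1, an antagonist of the apoptosis inhibitor XIAP, had log2 fold changes of 0.22 and -0.14 (edgeR adjusted p = 0.549 and 0.921). That of Ifi35 was 0.013 without S34F replicate 1 and 0.078 with the trend with GC content removed. Mx1, a GTPase that blocks influenza virus, had no count in any library. For Mx1 and Ifih1, whether this reflects expression or the counting was not tested. Rsad2, which encodes viperin, had 2, 26 and 3 counts in S34F replicates 1 to 3 and 2, 5 and 10 counts in WT replicates 1 to 3, so the S34F total came mostly from replicate 2. Oasl2 had 2, 11 and 5 counts in S34F replicates 1 to 3 and 2, 6 and 7 counts in WT replicates 1 to 3.

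The 5 tested MHC class I members all had positive log2 fold changes, except Tapbp without S34F replicate 2, and none passed. B2m (ENSMUSG00000060802, chromosome 2, 122147686 to 122153083, mm10) had the highest level per kilobase of all members, at 722.2 CPM per kilobase. It had 628.4, 796.6 and 660.3 CPM in S34F replicates 1 to 3, against 527.6, 554.8 and 559.1 CPM in WT replicates 1 to 3. All S34F libraries were above all WT libraries, with replicate 2 the highest, and the log2 fold change was 0.35 ± 0.12 (edgeR adjusted p = 0.158). H2-D1 (ENSMUSG00000073411, chromosome 17, 35262730 to 35267499, mm10), a class I heavy chain, had 16.9, 36.9 and 22.5 CPM in S34F replicates 1 to 3, against 11.9, 16.5 and 16.2 CPM in WT replicates 1 to 3. S34F replicate 2 stood far above the rest, and S34F replicate 1 was close to WT replicates 2 and 3. The log2 fold change of 0.77 ± 0.28 (edgeR adjusted p = 0.158) was 0.41 without S34F replicate 2.

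The transporter genes Tap1 and Tap2 and the tapasin gene Tapbp overlapped between the groups. Tap1 averaged 78.6 ± 17.8 CPM in S34F cells and 66.6 ± 16.3 CPM in WT cells (SD, n = 3 per group). Tap2 averaged 142.6 ± 25.0 CPM in S34F cells and 117.6 ± 26.6 CPM in WT cells. Tapbp averaged 86.0 ± 33.1 CPM in S34F cells and 73.9 ± 5.71 CPM in WT cells. Their log2 fold changes were 0.24, 0.28 and 0.22 (edgeR adjusted p = 0.554, 0.423 and 0.627). All 3 depended on single libraries. Without S34F replicate 2 they were 0.056, 0.128 and -0.125. Tap1 and Tap2 were also at 0.053 and 0.107 without WT replicate 1, and at 0.075 and 0.096 with the trend with GC content removed. The heavy chain gene H2-K1 had 5, 14 and 9 counts in S34F replicates 1 to 3 and 6, 8 and 8 counts in WT replicates 1 to 3, although the light chain B2m was abundant. H2-D1 and H2-K1 share 12.8% and 9.63% of their words with other genes. The line was derived from C3H mice, whereas mm10 represents C57BL/6J, and class I heavy chains differ strongly in sequence between such strains. The part of strain differences in the counts of H2-K1 and H2-D1 was not tested.

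Beyond the members, 2 other genes of the class I pathway rose in S34F cells. Of a list of 29 such genes 22 were tested, 2 rose and none fell (1.58% and 0.595% of all tested genes), with a median log2 fold change of 0.09 that was -0.004 without S34F replicate 2. Psmb8 (ENSMUSG00000024338, chromosome 17, 34197721 to 34201454, mm10), which replaces a catalytic subunit of the standard proteasome, had 114.2, 114.9 and 87.4 CPM in S34F replicates 1 to 3, against 65.0, 60.0 and 60.8 CPM in WT replicates 1 to 3. All S34F libraries were well above all WT libraries. It rose 1.70-fold (log2 fold change 0.77 ± 0.13, edgeR adjusted p = 0.0286). The other immunoproteasome subunits Psmb9 and Psmb10 overlapped between the groups, at 33.1 ± 7.32 and 19.6 ± 4.81 CPM in S34F cells, against 30.4 ± 4.60 and 15.3 ± 5.07 CPM in WT cells (SD, n = 3 per group). H2-Q1, a class I gene outside the classical heavy chains, had 3.84, 3.43 and 4.24 CPM in S34F replicates 1 to 3, against 1.09, 1.24 and 0.865 CPM in WT replicates 1 to 3. It rose 3.59-fold from a low level (log2 fold change 1.84 ± 0.28, edgeR adjusted p = 0.0248), and 15% of its words also occur in other genes, mainly H2-K1. H2-Q4 and H2-Q6 had no count in any library. The part of strain differences in the counts of these 3 H2-Q genes was not tested either.

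Neither call held when some single libraries were left out. For Psmb8 the edgeR adjusted p became 0.121 or 0.0504 when S34F replicate 1 or 2 was dropped, 0.145 or 0.143 when WT replicate 2 or 3 was dropped, and 0.135 with both of these WT libraries summed, at log2 fold changes between 0.70 and 0.75. For H2-Q1 it became 0.0854 or 0.0744 when S34F replicate 1 or 3 was dropped, 0.108 or 0.124 when WT replicate 2 or 3 was dropped, and 0.108 with these summed, at log2 fold changes between 1.71 and 1.96. With the trend with GC content removed the edgeR adjusted p was 0.0527 for Psmb8 and 0.027 for H2-Q1. Nlrc5, the transactivator of class I genes, was singled out after its values were seen. It had 27.0, 25.0 and 25.7 CPM in S34F replicates 1 to 3, against 19.4, 20.9 and 19.4 CPM in WT replicates 1 to 3, with a log2 fold change of 0.38 ± 0.13 that did not pass (edgeR adjusted p = 0.136).

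Markers of macrophages, which express the class I pathway strongly, had higher summed levels in every S34F library than in any WT library, although only 1 of the 3 expressed markers separated the groups. The 8 macrophage markers summed to between 259.6 and 349.3 CPM in S34F libraries and between 229.2 and 242.5 CPM in WT libraries. Most of the sum was Adgre1, 3 of the 8 reached a mean of 1 CPM, and C1qa and C1qb had no count in any library. Adgre1 had 232.1, 281.7 and 222.6 CPM in S34F replicates 1 to 3, against 198.4, 230.1 and 221.9 CPM in WT replicates 1 to 3. Csf1r had 16.02, 34.9 and 4.84 CPM in S34F replicates 1 to 3, against 10.3, 4.54 and 5.68 CPM in WT replicates 1 to 3. Both overlapped between the groups, whereas Cd68 did not, at 32.4, 32.2 and 32.0 CPM in S34F replicates 1 to 3, against 19.9, 7.54 and 7.46 CPM in WT replicates 1 to 3. The 12 progenitor markers also summed higher in every S34F library, to between 2171 and 2697 CPM, against between 1828 and 2090 CPM in WT libraries. Most of that sum was Ptprc, Csf2rb and Csf2rb2, each of which overlapped between the groups (edgeR adjusted p = 0.609, 0.308 and 0.335). The part of these markers in the levels of the class I genes was not tested. The 6 markers of plasmacytoid dendritic cells summed to between 44.9 and 53.6 CPM in S34F libraries and between 57.0 and 65.2 CPM in WT libraries, nearly all of it Tcf4, with Siglech, Bcl11a and Ly6d at 0.

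**Figure D3:**
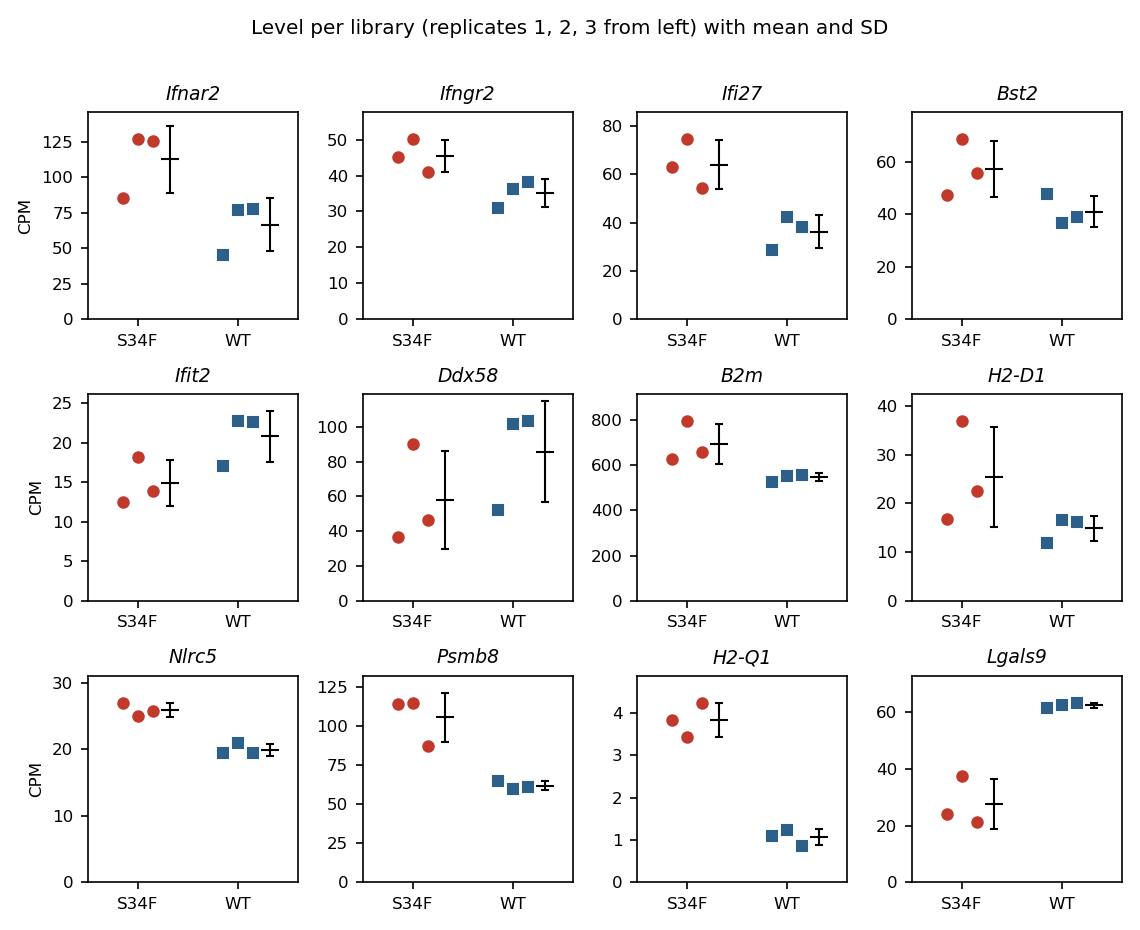
Level in each library of 12 genes, in TMM-normalised CPM on linear axes from 0, with S34F left of WT, replicates 1 to 3 from left to right in each group, and the mean with its SD (n = 3) in black. Psmb8, H2-Q1 and Nlrc5 lie higher in all S34F libraries, Lgals9 lies lower in all of them, and Ddx58 overlaps between the groups.

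Other interferon genes were more often negative than positive in log2 fold change, and 1 passed the test. Of a list of 97 such genes 66 were tested. The list mixes interferon targets with signalling genes and regulators such as Jak1, Tyk2, Ptpn6, Traf3, Tbk1 and Irf2bp2. Its direction is therefore not that of interferon targets alone. Negative log2 fold changes were found for 44 and positive ones for 22, with a median of -0.15, beside 0.00 over all tested genes. The median stayed below 0 under each alternative, between -0.354 without S34F replicate 2 and -0.079 without WT replicate 2. Of these 66 genes 1 fell and none rose, where 0.595% of all tested genes fell and 1.58% rose, so the count is near the background. The gene that fell was Lgals9 (ENSMUSG00000001123, chromosome 11, 78962974 to 78984946, mm10), with 23.98, 37.5 and 21.2 CPM in S34F replicates 1 to 3, against 61.6, 62.6 and 63.3 CPM in WT replicates 1 to 3. The WT libraries were nearly equal and all far above the S34F libraries. The log2 fold change was -1.18 ± 0.20 (edgeR adjusted p = 0.0286), and its promoter, printed above, holds the ISRE core in reverse complement. The edgeR adjusted p became 0.127 or 0.0876 when S34F replicate 1 or 3 was dropped, 0.114 or 0.117 when WT replicate 2 or 3 was dropped, and 0.111 with these summed, at log2 fold changes between -1.18 and -1.02. Ifnb1, which encodes interferon beta, had 2 counts in all S34F libraries together and 3 in all WT libraries together, and Ifng had none in any library.

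The 13 members whose promoters hold the ISRE core did not share a direction. Of these 8 were tested, of which 4 had positive and 4 negative log2 fold changes, with a median of -0.003. The median of the other 20 tested members was 0.14. Those 20 include Ifi27, Tap2 and Usp18, which had no promoter window to search. The medians therefore do not compare members with and without the ISRE core. The 5 members with the ISRE core that were not tested were Ifih1, Ifit1, Ifit3, Isg15 and Rsad2, each below 1.4 CPM in every library. B2m and Ifitm3 hold the same letters and were among the members with the highest levels per kilobase.

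The libraries of one group differed among themselves in these genes. Of the 28 tested members 17 were highest in S34F replicate 2 among the S34F libraries, which is 60.7%, against 37.3% of all tested genes. Among the WT libraries 18 members were lowest in WT replicate 1, which is 64.3%, against 45.6% of all tested genes. On the scale of log2(CPM + 1) relative to the WT mean, the median member was at 0.090, 0.099 and 0.014 in S34F replicates 1 to 3, against -0.164, 0.073 and 0.079 in WT replicates 1 to 3. All 3 S34F values lay above WT replicate 1, and S34F replicate 3 lay below WT replicates 2 and 3.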

How the data were processed

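The table that the authors deposited holds raw counts, as integers per Ensembl gene, for 6 libraries. HISAT2, featureCounts and mm10 are named, per the submitters' processing notes. Tool versions, strandedness of counting, annotation release and handling of multiply matching reads: not given in the sources used here. Counts are therefore uncertain for near-identical copies and overlapping genes. Per the labels' protocols the libraries were made with a directional kit. Groups came from the sample titles.

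Counts were tested with edgeR 4.0.16 (R 4.3.3) by its quasi-likelihood test (two-sided, robust), after filterByExpr and TMM scaling, with Benjamini-Hochberg adjustment over 13444 genes at 0.05. SE is the log2 fold change over the root of F. CPM are TMM-normalised, and levels between genes are compared per kilobase of GENCODE M21 exon. Of the gene IDs 54495 were in GENCODE M21, with 99.987% of the counts. Shared 50-base words were counted over GENCODE M21 transcripts. Promoters are from RefSeq (GRCm38.p6). The procedure was tested on simulated data. Alternatives were RLE factors, no count filter, DESeq2 1.42.0, the replicate number as a block, WT replicates 2 and 3 summed, removal of each library's loess trend (span 0.5) with the GC content of transcripts, and each library left out.

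The members, lists and tests were chosen with earlier results of these data known. Values are given per library for members with an unadjusted p under 0.05 and the highest member of each role by level per kilobase, and changed genes of the other lists are named. Genes given by library outside this rule, such as Ddx58, Zbp1, Isg15, Rsad2 and Nlrc5, were chosen after their values were seen.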

Additional observations from a re-analysis of the deposited data

How the results depend on the processing

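Of 336 values of tested members under 12 alternatives, 319 kept their direction and their side of the threshold. No member was called as reported, and a value of the same sign without a call counted as kept whatever its size. Ifi35, for example, went from 0.225 to 0.013 without S34F replicate 1, and Tap1 from 0.239 to 0.053 without WT replicate 1. The tally therefore does not show that the fold changes were stable. The number of changed genes overall was 293 of 13444 as reported. It was 763 of 24480 without the count filter, 1080 of 24480 with DESeq2 and 1418 of 13444 with the replicate block. It was 20 of 13815 with WT replicates 2 and 3 summed and 152 of 13444 with the GC trend removed. With single libraries left out it lay between 19 of 13775 (without WT replicate 2) and 1177 of 13837 (without WT replicate 1). Changed members numbered 1 of 35 without the filter (Ifi27) and 2 of 35 with DESeq2 (Ifi27, Ifnar2). They numbered 3 of 28 with the replicate block (Ifi27, Ifnar2, H2-D1), and between 0 and 2 of 28 with single libraries left out. Other interferon genes numbered 2 of 87 without the filter, 2 of 87 with DESeq2 and 4 of 66 with the replicate block. They numbered 0 of 68 with the summed libraries and between 0 and 4 with single libraries left out. Other class I pathway genes numbered 0 with the summed libraries, 1 with the GC trend removed and between 0 and 3 with single libraries left out. The median member log2 fold change was 0.018 with the GC trend removed and between 0.008 and 0.135 with single libraries left out. The same replicate numbers did not pair the libraries, with correlations of deviations of 0.332, 0.159 and 0.072, and S34F replicate 3 was not closest to its own number, so the fit with the block is not a paired test. Signs turned, all without a call, for Irf3 (-0.027), Ifngr1 (0.010) and Irf7 (-0.162) with the GC trend removed, and with single libraries left out for Tapbp (-0.125 to 0.431, below 0 without S34F replicate 2), Irf7 (-0.331 to 0.341, below 0 without S34F replicate 2 or WT replicate 1), Xaf1 (-1.009 to 0.317, above 0 without S34F replicate 3 or WT replicate 3) and Ifngr1 (-0.124 to 0.093, above 0 without S34F replicate 3). The cause was not tested. Of the 9 members that were not tested, all at 1.35 CPM or less in every library, 7 had counts too low for the filter and 2 had none.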

Other observations

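Among other interferon genes, Uba7 and Gbp7 varied between libraries of a group in the way Ddx58 did. They were chosen after their values were seen. Uba7, the activating enzyme of ISG15, had 47.8, 63.5 and 44.4 CPM in S34F replicates 1 to 3, against 42.8, 84.3 and 84.8 CPM in WT replicates 1 to 3. The guanylate-binding protein gene Gbp7 had 9.20, 25.5 and 10.3 CPM in S34F replicates 1 to 3, against 19.1, 29.8 and 31.2 CPM in WT replicates 1 to 3. In both genes S34F replicate 2 was the highest S34F library and WT replicate 1 the lowest WT library. Of the 66 tested genes of this list, 52 were highest in S34F replicate 2 among the S34F libraries (78.8%, against 37.3% of all tested genes) and 44 were lowest in WT replicate 1 among the WT libraries (66.7%, against 45.6% of all tested genes). What sets these libraries apart was not tested.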
